A study of Caenorhabditis elegans with 12 samples.

Results

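In Caenorhabditis elegans, 9 messenger RNAs stood out for a low level in the polysome fraction relative to total RNA of the same lysates: tcer-1, rtel-1, rmh-2, epg-5, apc-17, pqn-20, rabx-5, eri-12 and snpc-1.1. They were chosen by name because their counts were far lower in polysomal than in total RNA of wt or glh1 animals, so that contrast is described below without a test. They are 9 of 16526 genes that passed the filter on low counts, out of 46904 gene IDs in the count table, and all 9 passed it. Polyadenylated RNA was sequenced from 12 libraries. There were 3 liquid cultures of animals labelled wt and 3 of animals labelled glh1, each grown at 20 °C on freeze-dried OP50 bacteria for about 40 h from synchronized first-stage larvae until most were young adults. Each lysate gave a total RNA library and a library of the polysome fraction of a 10 to 50% sucrose gradient made with cycloheximide and heparin in the lysis buffer, which made 4 groups with 3 libraries apiece. The sources used here do not name the glh1 allele or the strains and do not count the animals per culture.

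Polysomes are messenger RNAs that carry several ribosomes, and they sediment deep into a sucrose gradient. An mRNA that is held in granules, retained in the nucleus, loaded with few ribosomes or broken during the preparation is found less in that fraction, and a measurement of RNA level in the fraction does not separate these states. GLH-1 belongs to the Vasa helicases and is found in P granules, RNA-rich bodies around germ cell nuclei. The 9 genes have unlike known roles: TCER-1 is a transcription elongation factor homologue that acts with DAF-16 when the germline is lost, RTEL-1 is a helicase that limits recombination, RMH-2 is a homologue of the RMI1 subunit of the BLM helicase complex, EPG-5 acts in the maturation of autophagosomes, and RABX-5 is a homologue of the RAB-5 exchange factor Rabex-5. SNPC-1.1 is a homologue of a subunit of SNAPc, the factor that starts transcription of small nuclear RNA genes and, in worms, of piRNA genes. The class name of eri-12 stands for enhanced RNA interference, that of apc-17 for the anaphase promoting complex, the ubiquitin ligase that starts anaphase, and that of pqn-20 for a prion-like domain rich in glutamine and asparagine.

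Library totals were 34520267 to 49672537 estimated counts. Annotated rRNA genes took 13.5 to 40.4% of them in total RNA and 3.07 to 45.7% in polysomal RNA, the highest share being that of polysomal glh1 library 2. The RNA of glh-1 itself was at 305 to 424 CPM in wt total RNA and at 532 to 586 CPM in glh1 total RNA, and at 293 to 388 and 880 to 1495 CPM in polysomal RNA. Its RNA was thus higher in every library labelled glh1, and without the allele the labels of the genotypes could not be checked by it. The tissue is labelled as embryo, against the growth protocol: 8 early zygotic genes summed to 1.45 to 4.14 CPM in any library, with at most 2 of them at 0 in a library, whereas 5 adult intestine and yolk genes summed to 5147 to 26985 CPM. Between fractions, 7 germline markers summed to 984 to 1427 CPM in wt total and 718 to 944 CPM in wt polysomal RNA, and 7 sperm markers to 152 to 208 and 344 to 500 CPM. Against these sums, the wt mean of pgl-3 was higher in polysomal RNA (128 CPM in total and 193 CPM in polysomal RNA). That of the sperm marker fer-1 was lower in polysomal RNA (7.87 and 4.13 CPM). In glh1 the germline sums were 1024 to 1051 CPM in total and 874 to 917 CPM in polysomal RNA, and the sperm sums 152 to 156 and 141 to 450 CPM, the latter high only in polysomal library 3. The part of such shifts in the values below was not tested. In whole animals, fewer cells of a type and less RNA per cell cannot be told apart.

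Levels are CPM, counts divided by the library size and expressed on the usual common scale, with TMM factors, and a polysomal level is also given as a percent of the total level of the same culture. All 9 genes were lower in each polysomal library than in every total library of the same genotype, in wt and in glh1. Over all genes tested, 19.8% were called lower in polysomal than total RNA of wt and 20.1% higher (edgeR quasi-likelihood test, adjusted p under 0.05), and 19.1% were called lower and 23.6% higher in glh1. The members were selected on this contrast, and a lack of overlap between the fractions in wt or glh1 was part of the choice. The share of all genes without such overlap is not given here. Nothing is read from the count of members or from their lack of overlap. Across the 9 genes, the median polysomal level was 14.1, 10.4 and 8.40% of the total level in wt cultures 1, 2 and 3, and 13.9, 18.2 and 6.79% in glh1 cultures 1, 2 and 3.

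**Figure D1:**
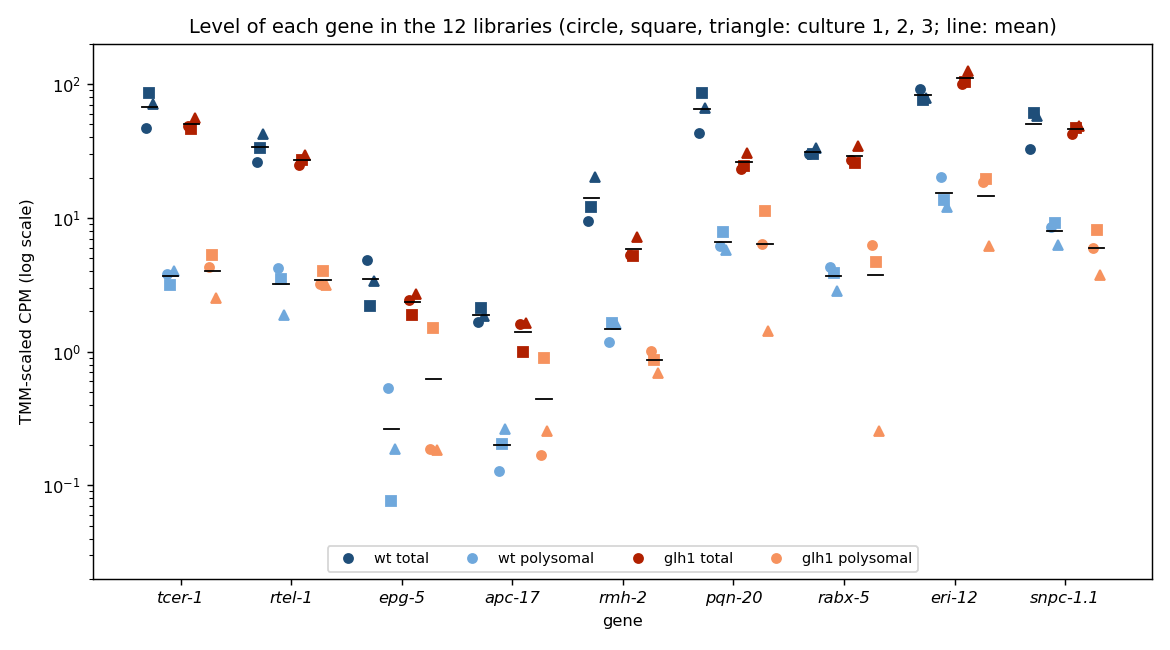
TMM-scaled CPM (log axis) of the 9 genes in the 12 libraries, with colours for the 4 groups, symbols for cultures 1 to 3 and a line at each group mean. The polysomal points lie below the total points for every gene in both genotypes, from 0.0761 CPM for epg-5 to 126.7 CPM for eri-12.

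The member with the lowest fitted polysomal to total ratio in both genotypes was tcer-1 (WBGene00022855), on the minus strand of chromosome II from 7045874 to 7050071 (WBcel235), with 7 annotated transcripts and 3430 bases of exon. In wt it was at 46.8, 85.4 and 71.4 CPM in total RNA of cultures 1, 2 and 3, and at 3.82, 3.17 and 4.01 CPM in polysomal RNA. In glh1 it was at 48.9, 46.1 and 55.9 CPM in total RNA and at 4.33, 5.27 and 2.52 CPM in polysomal RNA. The polysomal level was thus 8.18, 3.71 and 5.62% of the total level in wt and 8.86, 11.4 and 4.50% in glh1. The genotypes overlapped in both fractions, and wt total RNA spread more widely than glh1 total RNA. The fitted log2 fold change, polysomal against total, was -4.21 ± 0.30 (SE) in wt, or 18.5-fold lower, and -3.63 ± 0.29 in glh1, or 12.4-fold lower, with 3 cultures per genotype. Each SE of a log2 fold change here comes from the fit of all 12 libraries without the pairing by culture. It is not the spread between cultures, whose own log2 ratios had an SD of 0.57 in wt and 0.69 in glh1. Over the members that SD ran from 0.22 (rtel-1) to 2.77 (rabx-5), both in glh1. The longest annotated 5′ UTR of tcer-1, 1181 bases, was longer than that of 98.9% of the coding genes tested, whose median was 24 bases. Its estimated counts were not whole numbers in any of the 12 libraries, unlike those of the other 8 genes, and such fractions arise where an estimate divides reads between features.

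Both members that act on recombination intermediates were low in polysomes in every culture. The helicase gene rtel-1 (WBGene00009124, chromosome I, 10571954 to 10577147, plus strand) had 15 exons and 3133 bases of exon. In wt it was at 26.3, 33.5 and 42.7 CPM in total RNA and at 4.24, 3.48 and 1.89 CPM in polysomal RNA. In glh1 its total level was 24.7, 27.3 and 29.4 CPM and its polysomal level 3.21, 3.98 and 3.17 CPM. Its polysomal share spanned a wide range in wt, with 16.12, 10.4 and 4.42%, and a narrow one in glh1, with 12.98, 14.6 and 10.8%. Culture 3 had the highest total and the lowest polysomal level among the wt cultures. The log2 fold change was -3.41 ± 0.30 in wt and -2.97 ± 0.29 in glh1.

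The gene rmh-2 (WBGene00011576, chromosome V, 9927781 to 9930775, minus strand) had 9 exons and 2024 bases of exon. Its level in wt was 9.44, 12.2 and 20.4 CPM in total RNA and 1.18, 1.62 and 1.62 CPM in polysomal RNA. In glh1 it was 5.28, 5.23 and 7.17 CPM in total and 1.02, 0.868 and 0.693 CPM in polysomal RNA. Every glh1 library was below every wt library of the same fraction, from which nothing is read here. The polysomal share was nonetheless of like size, at 12.5, 13.4 and 7.95% in wt and 19.3, 16.6 and 9.67% in glh1, with log2 fold changes of -3.25 ± 0.32 and -2.76 ± 0.32. In the annotation, 104 exon bases of rmh-2 overlapped C50H2.13 on the other strand, and C50H2.13 had a log2 fold change of 0.73 in wt and 0.29 in glh1 (edgeR adjusted p = 0.0571 and 0.422). The sources used here do not say whether the counts are strand-specific, so reads in such an overlap cannot be assigned.

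In both of the least abundant members, glh1 culture 2 lay far from the other glh1 cultures. The autophagy gene epg-5 (WBGene00016968, chromosome II, 6598344 to 6609365, minus strand) was the longest, with 23 exons and 7291 bases of exon. Its total level was 4.87, 2.18 and 3.4 CPM in wt and 2.43, 1.88 and 2.69 CPM in glh1. Its polysomal level was 0.532, 0.0761 and 0.186 CPM in wt and 0.187, 1.496 and 0.182 CPM in glh1. Polysomal glh1 library 2 was high, with 50 estimated counts (exact 95% Poisson interval 37.1 to 65.9) against 11 and 5 in the other 2 glh1 polysomal libraries. The polysomal share was 10.9, 3.49 and 5.47% in wt and 7.69, 79.7 and 6.79% in glh1. The fitted log2 fold change was -3.62 ± 0.77 in wt and -1.93 ± 0.72 in glh1, and without polysomal glh1 library 2 the latter was -3.63. The wt value was -4.69 without wt polysomal library 1, the wt library with the highest polysomal level. An overlap of 8 bases joined epg-5 to vps-33.2 on the other strand, which fell by 2.19 on the log2 scale in wt polysomes and by 2.15 in glh1 polysomes (edgeR adjusted p = 1.59e-04 and 2.31e-04).

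The gene apc-17 (WBGene00007501, chromosome II, 11108128 to 11109583, plus strand) was the shortest, with 4 exons, 1074 bases of exon and no annotated 3′ UTR. It was at 1.66, 2.11 and 1.84 CPM in wt total RNA and at 1.60, 0.992 and 1.63 CPM in glh1 total RNA. Polysomal RNA held 0.129, 0.203 and 0.266 CPM in wt and 0.170, 0.898 and 0.255 CPM in glh1. As for epg-5, the high value was that of polysomal glh1 library 2, with 30 counts (exact 95% Poisson interval 20.2 to 42.8) against 10 and 7 in the others, and the total level of that culture was the lowest of the 6. The polysomal share was 7.76, 9.62 and 14.4% in wt and 10.6, 90.5 and 15.7% in glh1. The log2 fold change was -3.25 ± 0.55 in wt and -1.71 ± 0.51 in glh1, or -2.76 without polysomal glh1 library 2. That library held the highest rRNA share, 45.7%, whose part in these values was not tested. The intervals cover counting error only. On the other strand, glb-4 shared 13 bases with apc-17 and rose in polysomes, with log2 fold changes of 1.25 in wt and 1.095 in glh1 (edgeR adjusted p = 0.0115 and 0.0184), although the glh1 call was lost without any of 4 glh1 libraries in turn (adjusted p 0.0531 to 0.100).

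The gene pqn-20 (WBGene00004110, chromosome I, 6790978 to 6798161, plus strand) had 13 exons, 4645 bases of exon and an 833-base 3′ UTR, longer than that of 96.7% of coding genes tested. It was at 43.4, 86.1 and 66.8 CPM in wt total RNA and at 23.2, 24.3 and 30.7 CPM in glh1 total RNA. In polysomal RNA it was at 6.13, 7.84 and 5.79 CPM in wt and at 6.35, 11.3 and 1.42 CPM in glh1. The genotypes did not overlap in total RNA, with wt higher, from which nothing is read here. The polysomal glh1 libraries lay on both sides of the wt ones. The polysomal share was 14.1, 9.11 and 8.67% in wt and 27.3, 46.6 and 4.64% in glh1. The log2 fold change was -3.31 ± 0.53 in wt and -2.03 ± 0.50 in glh1, or -2.71 in glh1 without polysomal glh1 library 2.

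The values of rabx-5 (WBGene00012644, chromosome III, 10605349 to 10614930, plus strand, 3681 bases of exon) could not be separated from those of a second gene. Its last exon, mostly a 3′ UTR of 2097 bases that was longer than that of 99.8% of coding genes tested, covers 1708 of the 1709 exon bases of Y39A1A.24 on the same strand. Total levels of rabx-5 were 30.2, 30.2 and 33.5 CPM in wt and 27, 25.7 and 34.4 CPM in glh1. Its polysomal levels were 4.26, 3.88 and 2.82 CPM in wt and 6.23, 4.67 and 0.255 CPM in glh1, the last from 7 counts (exact 95% Poisson interval 2.81 to 14.4). In that same library Y39A1A.24 was at 64.4 CPM, against 24.4 to 34.9 CPM in the other polysomal libraries. The fitted log2 fold change was -3.09 ± 0.64 in wt and -2.94 ± 0.64 in glh1 for rabx-5 (-3.63 in glh1 without polysomal glh1 library 1), and 0.25 and 0.34 for Y39A1A.24 (edgeR adjusted p = 0.530 and 0.376). Summed over both genes, the polysomal level was 61.5, 56.02 and 62.8% of the total level in wt and 54.04, 53.7 and 102% in glh1, against 14.1, 12.9 and 8.40% and 23.1, 18.2 and 0.743% for rabx-5 alone. The share of the sum given to rabx-5 was 53.0 to 55.9% in wt total RNA and 7.48 to 12.8% in wt polysomal RNA. In glh1 the corresponding shares were 44.3 to 54.3% and 0.395 to 20.4%. The estimated counts of rabx-5 were whole numbers in all 12 libraries, unlike those of tcer-1. To which of the 2 genes reads of the shared bases were given still cannot be told from the counts, so the low polysomal level of rabx-5 is uncertain.

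Both members with small RNA roles, eri-12 and snpc-1.1, had the highest levels per length and the smallest depletion in wt. The gene eri-12 (WBGene00007091, chromosome IV, 12156838 to 12164281, plus strand, 2352 bases of exon) was at 92.4, 76.5 and 79.5 CPM in wt total RNA and at 20.1, 13.7 and 12.0 CPM in wt polysomal RNA. In glh1 it was at 100.7, 104.5 and 126.7 CPM in total RNA and at 18.5, 19.4 and 6.13 CPM in polysomal RNA. The polysomal share was 21.8, 17.95 and 15.1% in wt and 18.4, 18.6 and 4.84% in glh1. Of the 6 cultures only glh1 culture 3 lay apart, and the log2 fold change was -2.43 ± 0.35 in wt and -2.91 ± 0.36 in glh1.

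The gene snpc-1.1 (WBGene00015513, chromosome II, 7779297 to 7781301, minus strand, 1613 bases of exon) was at 33.0, 61.0 and 57.5 CPM in wt total and 42.4, 46.9 and 48.5 CPM in glh1 total RNA. Its polysomal level was 8.55, 9.21 and 6.27 CPM in wt and 5.91, 8.17 and 3.76 CPM in glh1. The genotypes overlapped in both fractions. The polysomal share was 25.9, 15.1 and 10.9% in wt and 13.9, 17.4 and 7.75% in glh1, with log2 fold changes of -2.65 ± 0.30 and -2.95 ± 0.31. The log2 fold change in glh1 was below that in wt with any single library left out. The difference of -0.29 ± 0.40 (SE) was smaller than its SE, uses the contrast that chose the members and was not tested.

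**Figure D2:**
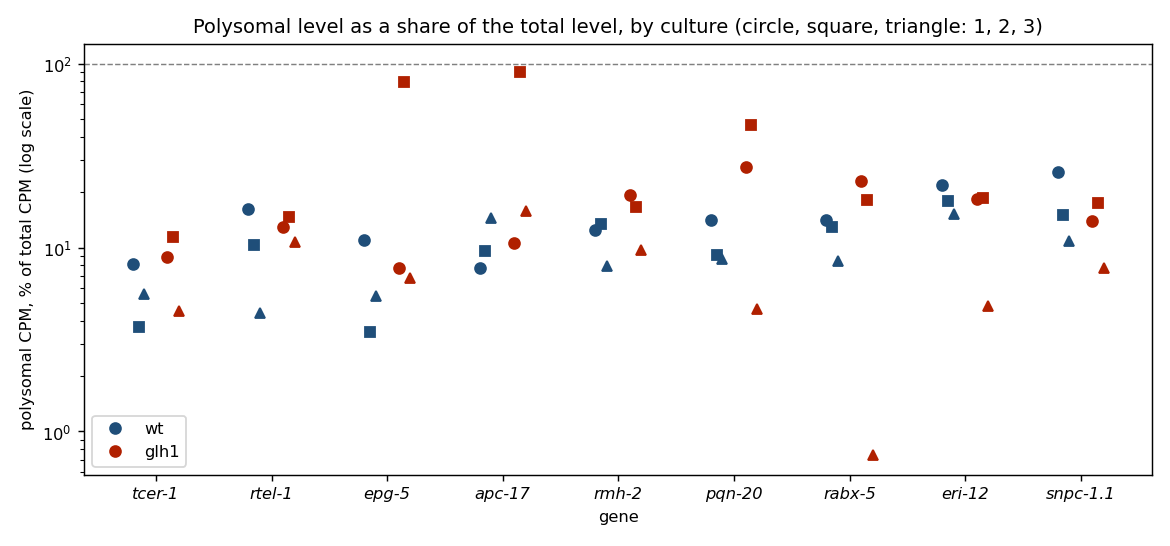
Polysomal level as a percent of the total level (log axis) for each gene in each of the 6 cultures, with wt in blue and glh1 in red and a dashed line at equal levels. The points lie between 3.49 and 27.3%, except that glh1 culture 2 is high for epg-5 (79.7%), apc-17 (90.5%) and pqn-20 (46.6%) while glh1 culture 3 is low for rabx-5 (0.743%).

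The cultures differed in the same sense for most members. In glh1, culture 3 gave the lowest polysomal share for 8 of the 9 genes and culture 2 the highest for 7. In wt, culture 3 gave the lowest share for 6 genes and culture 1 the highest for 7. The log2 ratio of polysomal to total level over coding genes had an SD of 1.56 in glh1 culture 3, against 0.80 to 1.14 in the other 5 cultures, and the part of this wider spread in the low values of glh1 culture 3 was not tested. Between genotypes, the glh1 minus wt difference of the log2 fold change was 1.69 ± 1.03 (SE) for epg-5, 1.54 ± 0.74 for apc-17 and 1.28 ± 0.69 for pqn-20. It was 0.57 ± 0.38 for tcer-1, 0.50 ± 0.43 for rmh-2, 0.43 ± 0.39 for rtel-1 and 0.15 ± 0.84 for rabx-5. For snpc-1.1 and eri-12 it was -0.29 ± 0.40 and -0.48 ± 0.48. These differences use the contrast that chose the members and were not tested. The 3 largest were smaller without polysomal glh1 library 2, at -0.01 for epg-5, 0.49 for apc-17 and 0.60 for pqn-20. Only that of epg-5 was then near 0, while those of apc-17 and pqn-20 were of like size to the values of rmh-2 and tcer-1 above. With each library left out in turn, the difference of rabx-5 ran from -0.56 to 0.69, that of rmh-2 from -0.01 to 0.72 and that of epg-5 up to 2.65. For rabx-5 it was also below 0 with the length trend removed (-0.07) and with the replicate block (-0.21). Without polysomal glh1 library 3 and wt culture 1 together, the differences of snpc-1.1 and eri-12 were above 0 (0.21 and 0.05). Over the 12 libraries, which the fraction difference dominates, the log2 CPM of the 36 pairs of members correlated with Pearson r of 0.776 to 0.981 (median 0.895).

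Per kilobase of exon, the order of the levels in wt total RNA was eri-12 with 35.2 ± 3.59 CPM per kb (SD, n = 3), snpc-1.1 with 31.3 ± 9.44, tcer-1 with 19.8 ± 5.70, pqn-20 with 14.1 ± 4.60, rtel-1 with 10.9 ± 2.62, rabx-5 with 8.50 ± 0.529, rmh-2 with 6.91 ± 2.82, apc-17 with 1.74 ± 0.210 and epg-5 with 0.478 ± 0.185. Neighbours from eri-12 down to rmh-2 overlapped in their libraries, whereas apc-17 and epg-5 were each below the gene before them in all 3 libraries.

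The members were not the lowest genes of all by fold change. Among the 16526 genes tested, ranked from the lowest log2 fold change, they stood from rank 7 (tcer-1) to rank 202 (eri-12) in wt and from rank 18 (tcer-1) to rank 779 (apc-17) in glh1. The members were proposed from genes with a class name that were called lower, at least 2-fold, at 1 CPM or more and not overlapping. Their places among such genes therefore restate the choice and support nothing. Among 1214 genes of wt with a class name that were called, at least 2-fold lower, at 1 CPM or more and not overlapping, the first 6 were members, ending with rmh-2 at -3.25 and apc-17 at -3.25. Next came the noncoding linc-40 at -3.24 and sdc-3, a gene of dosage compensation, at -3.19, and the remaining members rabx-5, snpc-1.1 and eri-12 were at ranks 13, 39 and 80. Among 1120 such genes of glh1, tcer-1 was second after the RNase P RNA rpr-1, members held ranks 5 to 8, ending with eri-12 at -2.91, and ril-2 followed at -2.87. In glh1, rmh-2 was at rank 16, pqn-20 at 164, epg-5 at 192 and apc-17 at 324.

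Long mRNAs were lower in polysomal RNA as a class. Over the 15761 coding genes tested, Spearman's rho between exon length and the log2 fold change was -0.471 in wt and -0.420 in glh1, across genes, which share libraries and are not independent. From the shortest to the longest of 5 length classes of equal size the median log2 fold change went from 0.80 to -0.55 in wt and from 0.83 to -0.43 in glh1. Of the 9 members, epg-5 was longer than 99.2% of coding genes, pqn-20 than 96.9%, rabx-5 than 93.8%, tcer-1 than 92.6%, rtel-1 than 90.7%, eri-12 than 82.3%, rmh-2 than 76.1% and snpc-1.1 than 63.1%, while apc-17 was below the median, longer than 36.8%. The members were chosen for low values of this contrast, so the ranks that follow only describe them and support nothing. Among genes whose exon length was within 10% of its own, tcer-1 was the lowest of 620 in wt and in glh1, where those genes had medians of -0.60 and -0.46. In wt, epg-5 was the lowest of 71 and pqn-20 the lowest of 304. Ranks in wt were 2 of 1933 for apc-17, 2 of 1495 for rmh-2, 3 of 729 for rtel-1, 3 of 551 for rabx-5, 14 of 1988 for snpc-1.1 and 19 of 1181 for eri-12. In glh1 the ranks were 2 for rabx-5, 3 for rtel-1, 4 for epg-5, 5 for eri-12, 6 for snpc-1.1, 7 for rmh-2, 13 for pqn-20 and 47 for apc-17. With the trend on exon length removed from each library, the log2 fold change of tcer-1 was -3.57 in wt and -3.16 in glh1, that of apc-17 was -3.43 and -1.89, and that of the other 7 members lay between -2.96 and -2.03 in wt and between -2.86 and -1.54 in glh1.

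**Figure D3:**
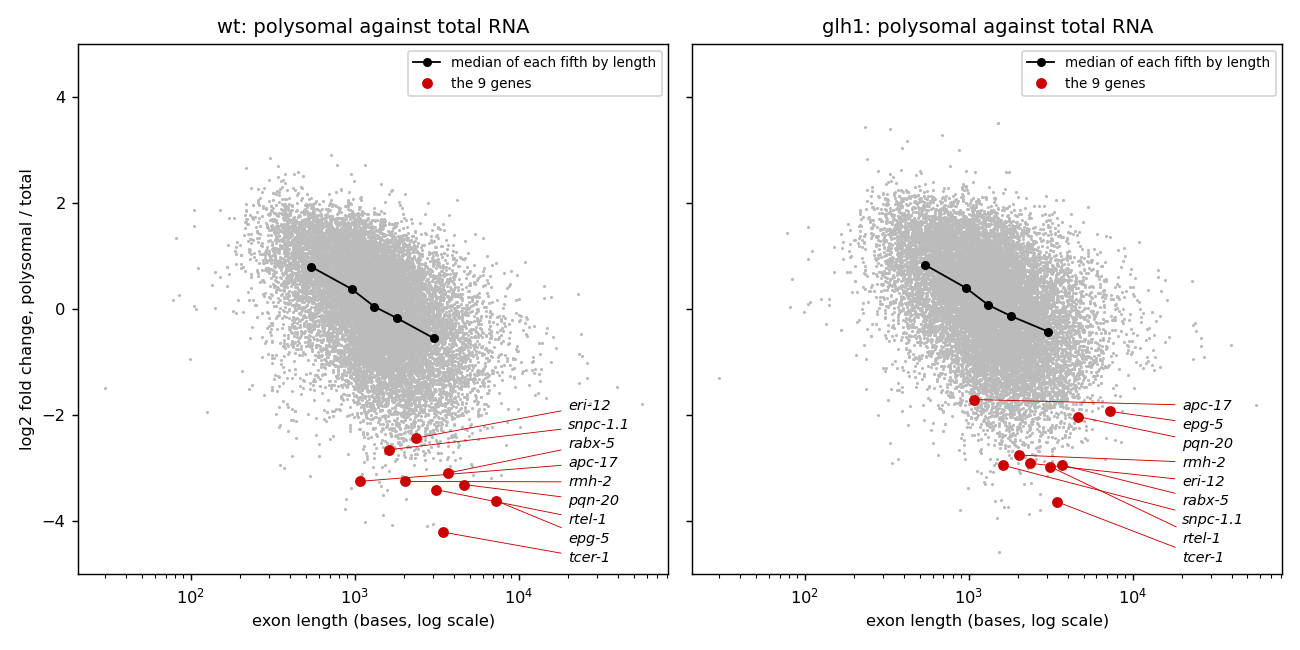
Fitted log2 fold change, polysomal over total RNA, against exon length (log axis) for the coding genes tested (grey), with the 9 genes in red and the median of each of 5 length classes in black, for wt (left) and glh1 (right). The medians go from 0.80 to -0.55 in wt and from 0.83 to -0.43 in glh1, and each of the 9 genes lies below the median of its length class.

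By position, 4 of the 9 genes (tcer-1, epg-5, apc-17 and snpc-1.1) were on chromosome II, which held 17.5% of the coding genes tested, and none was on X, which held 14.04%. The genes whose log2 CPM was most like that of a member over the 12 libraries were sought among 8785 genes with a class name. For tcer-1 they were apb-3 and ptrn-1 (both Pearson r = 0.995), and for rtel-1 noca-1 (0.996) and cmtr-2 (0.993). The profile of rmh-2 was most like those of cid-1 (0.997) and vps-54 (0.992), that of snpc-1.1 like nfx-1 and asps-1 (both 0.997), and that of eri-12 like ril-2 (0.992) and ascc-1 (0.987). For pqn-20 these were rict-1 (0.991) and rhgf-3 (0.990), and for rabx-5 sec-3 and pmk-1 (both 0.991). Likeness was lowest for the rare members, with dig-1 (0.975) and rpm-1 (0.960) for epg-5 and atg-16.1 (0.948) and sma-1 (0.941) for apc-17. Of these 18 genes, ril-2 and cmtr-2 had the log2 fold changes nearest to those of their members, with -2.50 in wt and -2.87 in glh1 for ril-2 and -2.58 and -2.54 for cmtr-2.

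Whether the members differed by genotype was tested within each fraction, in libraries that also entered the choice of members. None of the 9 was called in total RNA, where 0.944% of all genes were, and none in polysomal RNA, where 1.06% were (edgeR quasi-likelihood test, adjusted over 16526 genes). At an unadjusted p under 0.05 there were 2 of 9 in total RNA and 1 of 9 in polysomal RNA, against 17.8 and 15.7% of all genes, while DESeq2 called 1 member in total RNA. In total RNA the log2 fold change of glh1 against wt was below 0 for 8 of the 9, with a median of -0.41 against -0.07 over all genes. In polysomal RNA it was below 0 for 4 of the 9, with a median of 0.05. The choice of members used these same levels, and the share of all genes below 0 is not given here. These signs and medians therefore only describe the members. Marker sums also differed by genotype in total RNA: 5 genes of hypodermis and adult cuticle summed to 691 to 1122 CPM in wt and 476 to 533 CPM in glh1, 5 neuronal genes to 263 to 303 and 364 to 369 CPM, and 6 oocyte genes to 1064 to 1799 and 1089 to 1115 CPM. Most of the hypodermis sum was col-19, with means of 858 CPM in wt and 470 CPM in glh1. Means of col-7 and bli-1 were also lower in glh1, but those of rol-6 (10.0 and 11.9 CPM) and dpy-7 (8.94 and 9.60 CPM) were higher. Among the neuronal genes egl-21 had the largest part (140 and 202 CPM), and only unc-119 was lower in glh1 (9.03 and 7.78 CPM). None of these markers was at 0 in any library, and their part in the values of rmh-2, pqn-20 and the other members was not tested.

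The member nearest to a genotype difference was rmh-2, with 13.99 ± 5.70 CPM in wt total RNA and 5.89 ± 1.104 CPM in glh1 total RNA (SD, n = 3). Its log2 fold change was -1.25 ± 0.29 (SE; edgeR adjusted p = 0.0688), and all 3 glh1 libraries were below all 3 wt libraries. In edgeR it passed the threshold without polysomal glh1 library 3 (adjusted p = 0.0180), without wt total library 1 (0.0287), in a fit of only both total groups (0.0397) and in DESeq2 (0.00537), and over all alternatives its adjusted p was 1.30e-05 to 0.410. In polysomal RNA it was at 1.47 ± 0.257 CPM in wt and 0.860 ± 0.163 CPM in glh1, a log2 fold change of -0.75 ± 0.32 (edgeR adjusted p = 0.276), again without overlap. The lack of overlap in either fraction is description only, without a share of all genes beside it.

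For pqn-20, total RNA held 65.4 ± 21.4 CPM in wt and 26.1 ± 4.03 CPM in glh1, a log2 fold change of -1.33 ± 0.49 (edgeR adjusted p = 0.195). The 3 glh1 libraries were again below those of wt, and edgeR called the gene without polysomal glh1 library 3 (adjusted p = 0.0133) and in a fit of only both total groups (0.0149), with a range of 1.68e-04 to 0.544 over all alternatives. In polysomal RNA its log2 fold change was -0.04 ± 0.49 (edgeR adjusted p = 0.975). The groups also did not overlap in total RNA for apc-17, which was lower in glh1, and for eri-12, which was higher. Their log2 fold changes were -0.41 ± 0.47 and 0.42 ± 0.34 (edgeR adjusted p = 0.690 and 0.547). The share of all genes without overlap between genotypes is not given here. Nothing is therefore read from the lack of overlap in any member. For tcer-1 and snpc-1.1 the total RNA differences were -0.43 ± 0.26 and -0.14 ± 0.28 (edgeR adjusted p = 0.410 and 0.843). For rtel-1, epg-5 and rabx-5 they were -0.33, -0.58 and -0.11, with adjusted p of 0.548, 0.689 and 0.946. In polysomal RNA, apc-17 and epg-5 had the values farthest above 0, at 1.14 ± 0.57 and 1.11 ± 0.78 (edgeR adjusted p = 0.362 and 0.531), both resting on the high counts of polysomal glh1 library 2. The polysomal log2 fold changes of the other 5 members ran from -0.43 (snpc-1.1) to 0.14 (tcer-1), with adjusted p of 0.507 to 0.979.

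**Figure D4:**
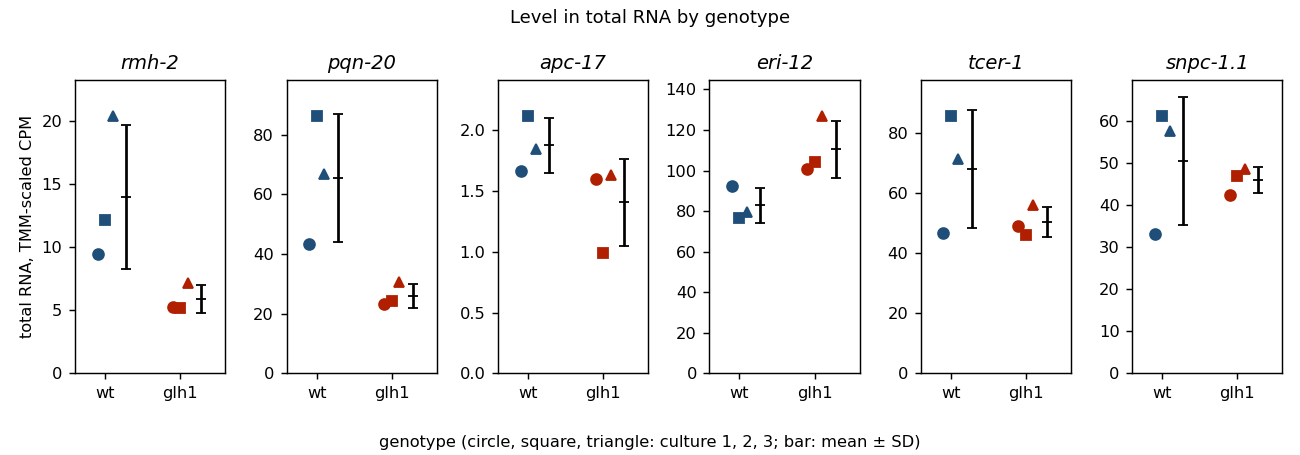
Level in total RNA (TMM-scaled CPM, linear axes from 0) of 6 of the genes by genotype, with symbols for cultures 1 to 3 and a bar for mean ± SD. For rmh-2 and pqn-20 the glh1 points lie below the wt points, with means of 5.89 against 13.99 and 26.1 against 65.4 CPM, and none of the genes passed the adjusted threshold.

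Genes of the members' pathways were taken from lists of 207 genes in all, of which 199 were tested, with the members left out. In wt, 95 of the 199 fell in polysomal RNA (edgeR adjusted p under 0.05) and 18 rose, with a median log2 fold change of -0.56 against 0.06 over all genes. In glh1, 87 fell and 28 rose, with a median of -0.44 against 0.13. Of all genes tested, 19.8% fell and 20.1% rose in wt, and 19.1% fell and 23.6% rose in glh1. The counts of each list below are to be read beside these shares. The lists were chosen with earlier results of these data known, so their counts are not independent support. The lists held longer genes than the whole, with a median exon length of 2054 against 1297 bases, and with the length trend removed 74 fell and 26 rose in wt and 71 fell and 35 rose in glh1. The count of genes that rose in wt was 31 without polysomal glh1 library 3, and that in glh1 was 18 without glh1 total library 1 or 3. With upper-quartile scaling, under which the median of all genes was 0.32 in wt and 0.28 in glh1, 79 fell and 39 rose in wt and 80 fell and 35 rose in glh1.

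The list around rtel-1 and rmh-2, genes of recombination and repair, had the lowest medians of the 8 lists: 25 of 29 fell in wt and 26 of 29 in glh1, none rose, and the medians were -1.504 and -1.32. The paralogue rmh-1, the second RMI1 homologue, fell, with log2 fold changes of -2.12 ± 0.22 in wt and -1.40 ± 0.22 in glh1 (edgeR adjusted p = 4.30e-05 and 5.10e-04). The nuclease scaffold gene him-18 had log2 fold changes of -2.74 in wt and -2.80 in glh1, the nuclease gene mus-81 of -1.98 and -2.04, and the crossover factor gene msh-5 of -2.02 and -1.41 (edgeR adjusted p of at most 2.88e-04). With the length trend removed, 22 of 29 fell in each genotype, where 17.96% of all genes fell in wt and 19.1% in glh1.

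Of 30 other genes of RNA interference, 23 fell and 1 rose in wt, and 22 fell and 1 rose in glh1, with medians of -1.204 and -1.07. The RNA-dependent RNA polymerase gene rrf-1 had log2 fold changes of -2.20 in wt and -2.11 in glh1, the endonuclease gene rde-8 of -1.81 and -1.68 and the exonuclease gene mut-7 of -1.60 and -1.22. The gene that rose was sid-2, which encodes a gut protein for uptake of double-stranded RNA, with 1.41 ± 0.15 in wt and 1.23 ± 0.15 in glh1 (edgeR adjusted p = 4.90e-05 and 1.46e-04). With the length trend removed, 19 fell in wt and 18 in glh1.

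Among 10 genes of SNAPc and piRNA gene transcription, 6 fell and none rose in wt, and 5 fell and 2 rose in glh1, with medians of -0.88 and -0.67, and these counts were equal with the length trend removed. The subunit gene snpc-4 had log2 fold changes of -1.236 in wt and -1.21 in glh1, tofu-4 of -1.13 and -1.18, tofu-5 of -1.28 and -1.14, and the TATA-binding protein gene tbp-1 of -1.23 and -0.78, all called. The paralogues of snpc-1.1 differed from each other in the test: snpc-1.2 had -0.25 ± 0.23 in wt and -0.22 ± 0.23 in glh1 (edgeR adjusted p = 0.408 and 0.456), while snpc-1.3, which acts in male piRNA expression, fell, with -1.11 ± 0.31 and -0.92 ± 0.31 (edgeR adjusted p = 0.0124 and 0.0282). In edgeR the snpc-1.3 call was lost in wt without wt total library 2 (adjusted p = 0.0545) and in glh1 without glh1 total library 2 (0.0757) or polysomal glh1 library 3 (0.0724), and the difference between the paralogues was not itself tested.

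The 19 genes of the anaphase promoting complex and its checkpoint had 10 that fell and none that rose in wt, and 9 that fell and 2 that rose in glh1, with medians of -0.53 and -0.52. With the length trend removed, 8 fell and 1 rose in wt and 7 fell and 1 rose in glh1. The subunit genes emb-27, emb-30 and apc-2 fell, with log2 fold changes of -1.73, -1.151 and -1.08 in wt and -1.38, -1.25 and -1.09 in glh1, and so did the checkpoint gene mdf-1, with -1.44 and -1.55. The subunit paralogues such-1 and gfi-3 were not called, with -0.23 and -0.52 in wt and 0.09 and -0.52 in glh1 (edgeR adjusted p of 0.0711 to 0.745).

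The other lists moved in both directions, as did all genes tested (19.8% lower and 20.1% higher in wt, 19.1% and 23.6% in glh1). Counts near these shares say nothing particular about a list. Of 32 autophagy genes, 10 fell and 6 rose in wt and 5 fell and 8 rose in glh1, with medians of -0.17 and 0.09. With the length trend removed, 8 fell and 10 rose in wt and 5 fell and 12 rose in glh1, with medians of 0.10 and 0.28. The autophagy genes epg-8 and atg-13 fell, with log2 fold changes of -1.51 and -1.42 in wt and -0.97 and -1.22 in glh1. The kinase gene unc-51 rose by 1.3003 in wt and 1.43 in glh1, and the lysosomal membrane gene lmp-1 by 1.01 and 0.99 (edgeR adjusted p of at most 0.00384 for all of these). Of 19 endocytic genes, 9 fell and 3 rose in wt and 9 fell and 6 rose in glh1, or 7 and 2 in wt and 7 and 5 in glh1 with the length trend removed. The GTPase activator gene tbc-2 had log2 fold changes of -2.82 in wt and -2.51 in glh1, and rabn-5, the homologue of the Rabex-5 partner Rabaptin, of -1.45 and -1.12, all called. The GTPase gene rab-7 rose by 0.75 in wt and 1.17 in glh1, but was not called in wt with the length trend removed (edgeR adjusted p = 0.159). The gene rme-8, which encodes a DNAJ protein of endosomes, fell, with -1.18 in wt and -0.89 in glh1, and was not called with the length trend removed (edgeR adjusted p = 0.0626 and 0.0565). The other RAB-5 exchange factor gene, rme-6, had 0.36 ± 0.21 in wt and 0.25 ± 0.21 in glh1 (edgeR adjusted p = 0.188 and 0.338).

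Of 14 genes of longevity on germline loss, the setting in which tcer-1 is known, 3 fell and 2 rose in wt and 2 fell and 2 rose in glh1, and with the length trend removed 1 fell and 3 rose in each genotype. The transcription factor gene skn-1 fell, with log2 fold changes of -1.236 in wt and -0.80 in glh1, the latter not called with the length trend removed (edgeR adjusted p = 0.0823). The nuclear receptor gene daf-12 fell in wt, with -1.46 (edgeR adjusted p = 0.00293, or 0.0643 with the length trend removed), and had -0.25 in glh1 (0.534). The adaptor gene kri-1 fell, with -1.61 in glh1 and -0.93 in wt, and edgeR lost the wt call with the length trend removed (adjusted p = 0.282), with upper-quartile scaling (0.107), without the filter (0.0592), with only the groups compared (0.0743) and without any of 7 single libraries (0.0548 to 0.145). The transcription factor gene hlh-30 rose by 1.201 in glh1 and by 0.86 in wt, where edgeR lost the call without any of 6 single libraries (adjusted p of 0.0527 to 0.141). Of 47 pqn genes tested out of 55, 9 fell and 7 rose in wt and 9 fell and 8 rose in glh1, and with the length trend removed 3 fell and 9 rose in wt and 6 fell and 11 rose in glh1. Those with the smallest adjusted p all rose: pqn-42 by 1.70 and 1.90, pqn-75 by 1.53 and 1.35, pqn-83 by 1.17 and 1.27 and pqn-27 by 0.88 and 1.105. By genotype, 1 gene of all lists was called in total RNA and 1 in polysomal RNA, in both cases pqn-84, which was higher in glh1 by 1.89 ± 0.29 and 1.71 ± 0.28 on the log2 scale (edgeR adjusted p = 0.00986 and 0.0130) and is named here after its values were seen.

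**Figure D5:**
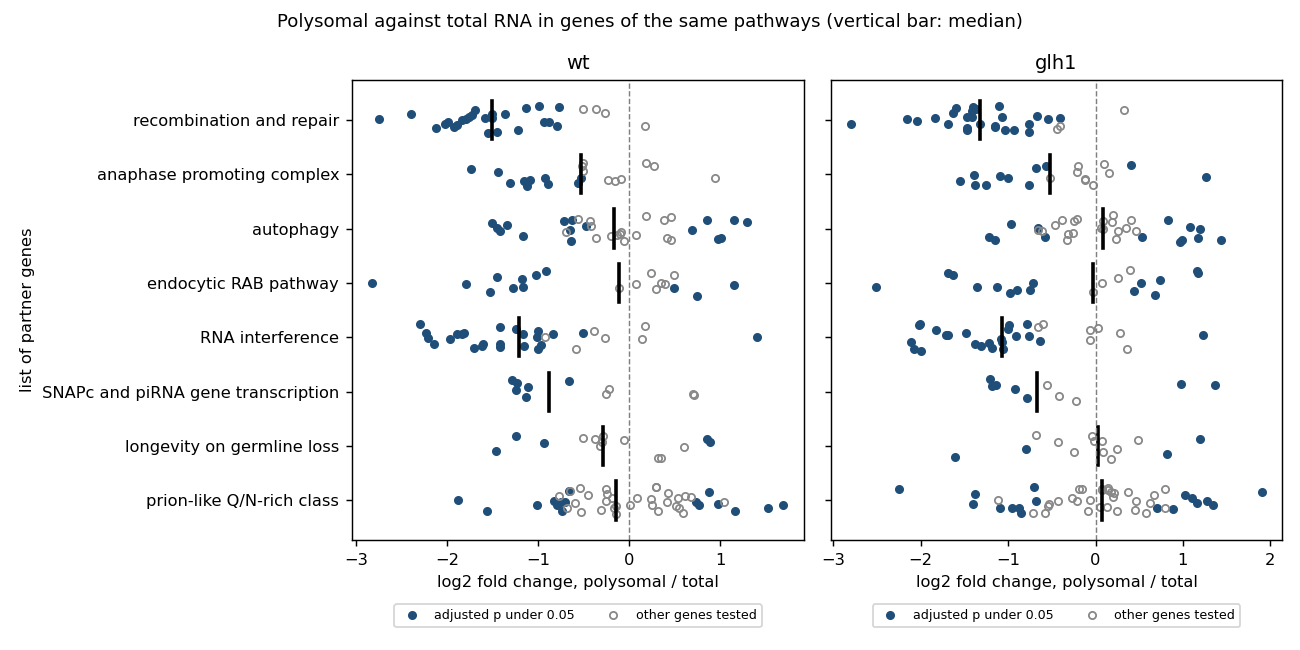
Fitted log2 fold change, polysomal over total RNA, of the genes of each list in wt (left) and glh1 (right), with filled points for genes called at an adjusted p under 0.05, open points for the others and a bar at each list's median. The medians of the recombination and repair list (-1.504 and -1.32) and the RNA interference list (-1.204 and -1.07) lie farthest below 0, and those of the autophagy and pqn lists lie near it.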

How the data were processed

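The authors deposited a table of estimated counts for 46904 gene IDs and 12 libraries, and rlog values, which are log2 expression with low counts shrunken, for 12709 genes. Per the submitters' processing notes, the tools included STAR 2.6.1b and RSEM 1.3.0, then DESeq2 1.24.0, after trimming by Trimmomatic 0.36, and the build was WBcel235. The count table is named after kallisto instead, and its maker is therefore uncertain. Gene names, coordinates and lengths are those of Ensembl release 115 for that build, which held 46817 of the IDs and gave a symbol for 44017.

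Counts were rounded and fitted with edgeR 4.0.16 in R 4.3.3: filterByExpr (16526 genes kept), TMM factors, 1 robust quasi-likelihood model of the 4 groups, and p-values adjusted over all genes tested by Benjamini and Hochberg, called under 0.05. The fit was also run on simulated independent counts, without lysate pairs or a length trend. The outcome of that run is not given here, and it could not speak to those features of the data. DESeq2 1.42.0 and limma 3.58.1 (on the rlog values) served as alternatives, beside other scaling, filters, blocks, a length offset and each library left out. Exon length is the union of annotated exons. Poisson intervals came from scipy 1.17.1 and figures from matplotlib 3.10.9.

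Per the labels' protocols, each lysate was divided between both fractions, so the fraction contrasts are paired by culture. Deviations from the group means correlated at 0.756, 0.440 and 0.304 within wt cultures and at 0.0989, -0.163 and -0.206 within glh1 cultures. Cultures are the replicates. Chi-square per degree of freedom between replicates was 22.4 to 1364, so no library was a copy of another.

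The 9 genes and the pathway lists were chosen with earlier results of these data known. Named genes are the members, their relatives rmh-1, snpc-1.2, snpc-1.3, rme-6, such-1 and gfi-3, genes that overlap a member, up to 4 called genes of each list by the smaller adjusted p of both fraction contrasts, and the 2 genes most correlated with each member (log2 CPM with a prior count of 2). Of the listed symbols, rad-54, atg-11 and rde-3 matched no gene. GC content and sequences were not used here. Gene roles are textbook background.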

Additional observations from a re-analysis of the deposited data

How the results depend on the processing

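The polysomal to total log2 fold changes of the 9 genes kept their sign in every alternative run, and 420 values stayed within the spread between cultures while 24 moved farther. Among the latter were some, not all, of those on the rlog scale, which shrinks low counts, and of those with the length trend removed. The count of members called by genotype in total RNA, 0 as reported, was 2 with only the 2 groups compared (rmh-2 and pqn-20), and 1 (rmh-2) without wt culture 1, with the length offset and replicate block, and with DESeq2. Leaving out each library in turn gave 0 to 2. Without polysomal glh1 library 3 and wt culture 1 together, chosen after seeing the data, 6 were called in total RNA and 2 in polysomal RNA (rabx-5 and eri-12, the latter reversed to 0.56 from -0.06), while 7242 and 5730 of all genes were called against 156 and 175. Genes of the lists that rose in wt polysomes, 18 as reported, numbered 39 with upper-quartile scaling, 30 with the length offset and replicate block and 34 without those libraries, and 15 to 31 with each library left out. In glh1, 28 as reported, they numbered 43 without those libraries and 18 to 33 with each left out. The cause was not tested. With the replicate block, which holds the lysate pairs, 96 fell and 24 rose in wt and 88 fell and 30 rose in glh1, and the block alone changed no call of a member or a named gene. Of all genes called in wt, 50.4% were higher in polysomes, or 67.0% with upper-quartile scaling (55.2 and 64.7% in glh1). Over all genes, calls by genotype in total RNA ran from 30 to 1451 with each library left out, and in polysomal RNA from 48 to 402. Of 69 calls of named list genes and overlapping genes, 59 held in every alternative. Depth limits epg-5 and apc-17, with 3 to 50 polysomal counts per library.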
